A study of Mus musculus with 12 samples.

Results

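KLF4 binding sites mapped in induced pluripotent stem cells (iPSCs) were laid on the acetylated chromatin of embryonic stem cells (ESCs) whose Klf genes had not yet been edited. All 21563 KLF4 peaks of the iPSC list were used, together with all 49460 bins of 10 kb in the ESC list at 0 h. Of these bins, 12061 overlapped at least 1 KLF4 peak by 1 bp or more and 37399 overlapped none. The 2 lists stand for 4 of the 12 samples of the study, 2 replicates for each list. Chromatin immunoprecipitation sequencing (ChIP-seq) measured acetylation of histone H3 at lysine 27 (H3K27ac) in the ESCs with antibody ab4729, and KLF4 in the iPSCs with an R&D antibody. The ESCs were mouse V6.5 cells carrying a lentiviral doxycycline-inducible Cas9 (vector c3GIC9, Cas9 under the TRE3G promoter) with guides to Klf4 only or to the 3 genes Klf2, Klf4 and Klf5 at once, which of these the titles do not settle. Puromycin-selected clones were picked, and the 0 h samples, titled WT, had received no doxycycline, so they carried Cas9 and the guides without induction. The iPSCs, cells reprogrammed from a somatic type that the labels do not name, and the ESCs are both labelled as cultured in 2i, inhibitors of MEK and GSK3 that keep mouse pluripotent cells naive. The protocol places V6.5 cells on irradiated feeder cells in serum with LIF. KLF4 was therefore not measured in the ESCs themselves, and a peak below means a site bound in iPSCs.

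KLF4 is a zinc-finger transcription factor of the Krüppel-like family that binds GC-rich words of the CACCC type, and it is 1 of the factors used to reprogram somatic cells. In naive pluripotent cells it acts beside KLF2, KLF5, ESRRB, NANOG and OCT4, and its loss can be buffered by its relatives. H3K27ac is laid down by the acetyltransferases p300 and CBP at active promoters and enhancers. Broad stretches of the mark surround genes that define a cell's identity.

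Stretches of promoters, mostly of genes active in pluripotent cells, are shown in sequence with and without such peaks. The KLF4 words GGGTGTGG and GGGCGTGG were searched on both strands in RefSeq promoter windows of 300 bases (250 before to 50 after a transcription start, GRCm38.p6, the primary assembly of mm10), and the words cannot match at the same place. Stretches of up to 100 bases of these windows follow, 5′ to 3′ on the gene's strand, with each word in capitals. In the first 4, a KLF4 peak overlapped the window and a word was present. Peaks were matched to the whole window, so a word shown need not lie inside the peak. Zfp42 (Rex1, a naive marker, chr8:43307027-43307126, minus strand) lay in a bin of H3K27ac value 8.33, Tfcp2l1 (a naive-state activator, chr1:118627842-118627941, plus) in one of 11.2, Tcf7l1 (the Wnt pathway repressor TCF3, chr6:72789046-72789137, minus) in one of 12.1, and L1td1 (an RNA-binding protein of pluripotent cells, chr4:98726580-98726679, plus) in one of 8.84.
Zfp42: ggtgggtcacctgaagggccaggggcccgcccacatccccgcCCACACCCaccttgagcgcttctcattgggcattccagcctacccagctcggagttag
Tfcp2l1: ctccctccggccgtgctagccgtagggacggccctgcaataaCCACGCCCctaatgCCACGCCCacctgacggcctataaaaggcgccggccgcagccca
Tcf7l1: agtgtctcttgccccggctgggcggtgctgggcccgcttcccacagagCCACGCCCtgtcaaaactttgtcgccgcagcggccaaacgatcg
L1td1: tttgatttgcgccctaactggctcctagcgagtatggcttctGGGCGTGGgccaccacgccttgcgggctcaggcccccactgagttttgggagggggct
In the next 3, a peak overlapped the window and neither word was in it. They are Pou5f1 (encoding OCT4, chr17:35505929-35506028, plus), Klf2 (chr8:72318962-72319061, plus) and Klf4 itself (chr4:55532575-55532674, minus), in bins of value 8.73, 8.86 and 7.32.
Pou5f1: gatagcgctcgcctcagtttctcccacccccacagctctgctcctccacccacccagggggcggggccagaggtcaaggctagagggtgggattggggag
Klf2: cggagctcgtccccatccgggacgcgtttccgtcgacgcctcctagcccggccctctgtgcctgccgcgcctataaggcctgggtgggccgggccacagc
Klf4: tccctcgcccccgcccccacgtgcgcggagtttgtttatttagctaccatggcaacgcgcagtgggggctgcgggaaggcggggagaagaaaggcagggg
The last 3 held a word and no peak in the window. The bins of Nanog (chr6:122707397-122707488, plus, value 10.0) and of the forkhead factor gene Foxd3 (chr4:99656207-99656298, plus, value 4.19) held KLF4 peaks elsewhere, 2 and 3, while the bin of the tight-junction gene Tjp3 (chr10:81291583-81291682, minus, value 5.37) held none.
Nanog: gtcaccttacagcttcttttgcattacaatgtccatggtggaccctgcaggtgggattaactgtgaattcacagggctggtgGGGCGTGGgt
Foxd3: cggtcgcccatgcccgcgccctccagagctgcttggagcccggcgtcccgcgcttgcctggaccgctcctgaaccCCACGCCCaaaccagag
Tjp3: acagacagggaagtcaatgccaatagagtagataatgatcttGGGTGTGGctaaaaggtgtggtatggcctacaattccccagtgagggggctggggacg

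Where the KLF4 sites lay was asked first. Of the 21563 KLF4 peaks, 12816 (59.4%, 95% exact binomial interval 58.8 to 60.1) touched a 0 h bin that carries an H3K27ac value, called a valued bin. A further 2063 touched only listed bins without a value, and 6684 touched no listed bin. The chromosomes were cut into 272188 steps of 10 kb, each up to its last RefSeq gene end, with Y included though it has no listed bin. Valued bins made up 9.85% of these steps and held 49.1 KLF4 peaks per 100 bins. Bins listed without a value held 9.35 per 100, and the unlisted steps, 81.8% of all steps, held 3.12 per 100. An unlisted bin has no deposited value, which is not a measurement of no acetylation. Each list is 1 deposited table made from both replicates, with no column per replicate. Replicates could not be tested, read depth is unknown, and all intervals cover counting error only.

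KLF4 peaks at most 2 kb from a start or end of a protein-coding gene were in valued bins more often than those farther away, 66.0% (65.0 to 67.1) of 7833 against 55.7% (54.8 to 56.5) of 13730. Wide peaks were in valued bins more often than narrow ones. Among the narrowest 20% of the peaks (73 to 176 bp) the share was 50.8% (49.3 to 52.3), and among the widest 20% (389 to 4383 bp) it was 71.2% (69.8 to 72.5). The median width was 280 bp in valued bins, 227 bp in bins without a value and 242 bp in unlisted bins. Among chromosomes with listed bins the share ran from 51.8% on chromosome 13 to 68.4% on chromosome 7.

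Read from the side of the bins, listed bins with KLF4 carried a value more often than those without. Over all listed bins 54.2% had one (26812 of 49460). The share was 44.5% of the 37399 bins with no KLF4 peak, 82.3% (81.5 to 83.1) with 1 peak, 91.3% (90.0 to 92.5) with 2, 93.6% (90.8 to 95.7) with 3 and 99.0% (94.8 to 100.0) with 4 or more, where 103 of 104 bins had one. For bins with any KLF4 it was 84.4% (83.7 to 85.0). Away from gene ends the climb was steeper, from 38.9% with no peak to 79.9%, 92.3% and 98.4% with 1, 2 and 3, and all 30 bins with 4 or more carried a value. Near gene ends it ran from 57.2% through 84.8% and 90.7% to 91.5%, and to 98.6% with 4 or more.

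The H3K27ac value itself, in the deposited scale whose normalization is not given, was higher in bins with more KLF4 peaks. Near gene ends the median value was 4.51 in 6534 valued bins with no peak, 5.23 in 4000 bins with 1, 5.94 in 1108 with 2, 6.83 in 268 with 3 and 6.93 in 73 with 4 or more. Away from gene ends the medians were 4.04 (10101 bins), 5.35 (3820), 6.45 (754), 7.79 (124) and 8.63 (30). The order of the 2 places thus turned with KLF4: without a peak, bins near gene ends had the higher median, with an interval of 4.45 to 4.59 against 3.99 to 4.07. With 3 peaks the bins away from genes were higher, 6.93 to 8.81 against 6.41 to 7.19, intervals that overlap. As a ratio to bins without KLF4 of the same class, 1, 2, 3 and 4 or more peaks gave 1.16, 1.32, 1.51 and 1.53 near gene ends and 1.32, 1.60, 1.93 and 2.14 away from them.

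**Figure D1:**
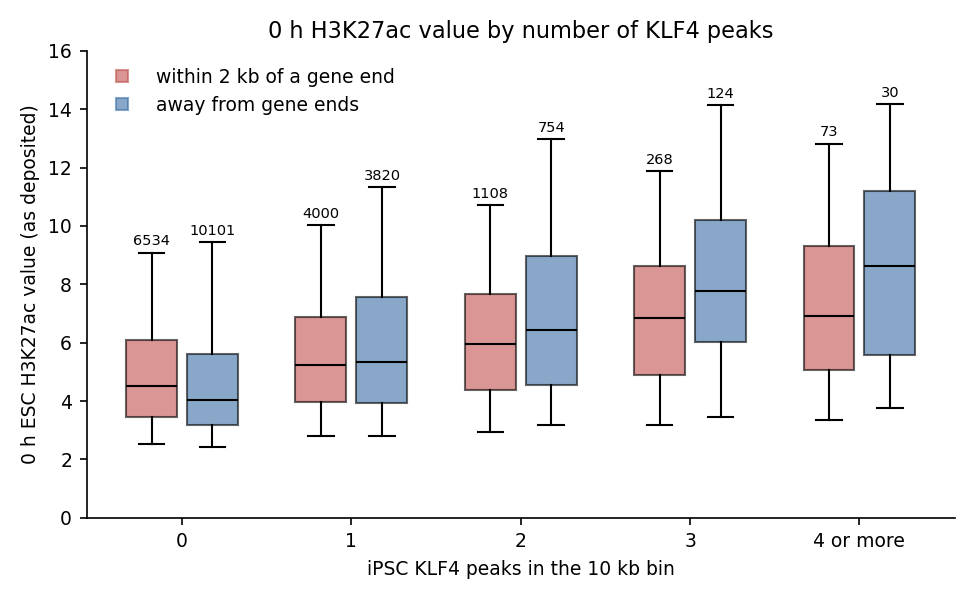
H3K27ac value of valued 0 h bins (vertical axis, deposited scale) by the number of iPSC KLF4 peaks in the bin, for bins within 2 kb of a protein-coding gene end (red) and away from one (blue). Lines are medians, boxes quartiles, whiskers the 5th to 95th percentile and numbers the bins; the median runs from 4.51 to 6.93 near gene ends and from 4.04 to 8.63 away from them.

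Of the 10177 valued bins with KLF4, 70.5% (69.6 to 71.4) lay above the median value of KLF4-free bins of the same gene-end class, against 50% of the KLF4-free bins by construction. The share was 66.6% (65.3 to 67.8) near gene ends and 75.0% (73.7 to 76.2) away from them. With 1 peak it was 68.1%, with 2 it was 77.0%, with 3 it was 84.2% and with 4 or more it was 84.5% (76.0 to 90.9). The level of the value differed between chromosomes, with a median of 7.44 on X and of 4.35 to 4.76 on the autosomes, and the share was taken on each chromosome too. It was higher for KLF4 bins than for KLF4-free bins on 20 of 20 chromosomes, from 65.4% on chromosome 19 to 96.0% on X, beside 43.7% to 89.2% for KLF4-free bins. Only 26.1% of valued bins on X held KLF4, against 34.0% to 41.2% on the autosomes.

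KLF4 was found at every level of acetylation, and more often at high ones. Of all valued bins, 38.0% (37.4 to 38.5) held a KLF4 peak. From the lowest to the highest decile of the value the share was 19.2, 24.3, 25.8, 30.6, 36.4, 39.9, 42.6, 48.6, 53.1 and 59.0%. Bins with 2 or more peaks made up 2.83% of the lowest decile and 19.7% of the highest. The share near gene ends was above that away from them in each decile, 28.7% (25.8 to 31.7) against 14.1% (12.5 to 15.8) in the lowest and 63.2% (60.3 to 66.1) against 56.2% (53.7 to 58.6) in the highest, and the gap narrowed toward the top. Across the 26812 valued bins, which share neighbours and chromosome levels, the number of peaks and the value had a Spearman rho of 0.27.

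**Figure D2:**
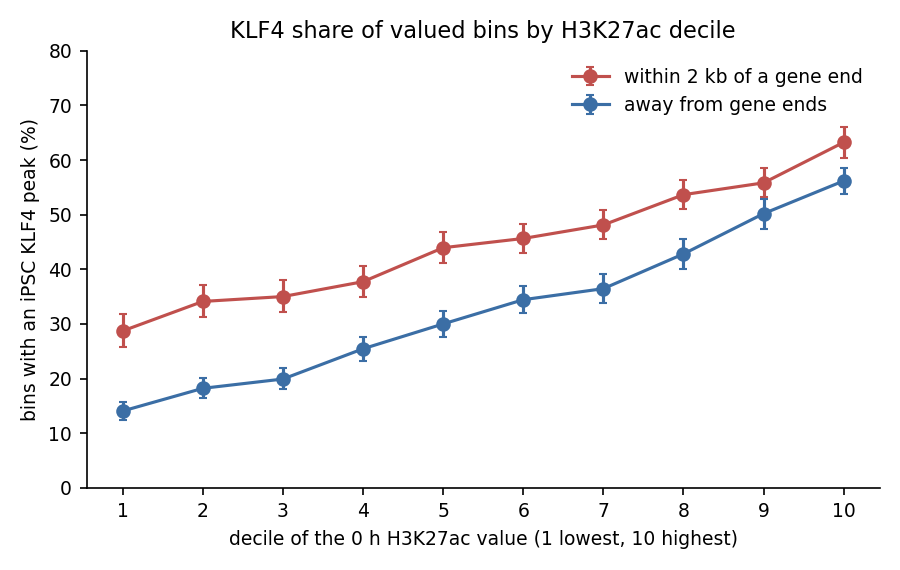
Share of valued 0 h bins that hold an iPSC KLF4 peak (vertical axis, percent) in each decile of the H3K27ac value, near (red) and away from (blue) protein-coding gene ends, with 95% exact binomial intervals. The share climbs from 28.7% to 63.2% near gene ends and from 14.1% to 56.2% away from them.

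A high value was not always a KLF4 bin, and several peaks did not always come with a high value. Of the 100 bins of highest value 57 held KLF4, of the top 500 it was 310 and of the top 1000 it was 595. The highest value of all, 29.7, lay inside Esrrb, which encodes an orphan nuclear receptor of the naive network (chr12:86500001-86510000, 11628 bp from the nearest gene end), with 2 KLF4 peaks. Other bins of high value with KLF4 were that of Mageb16 on X (20.4), a bin 141790 bp from Negr1 (19.4) and the bin of Brd2 and H2-DMa (19.4), with 1 peak each. The 5 highest bins without KLF4 were all on X: a pair at the cohesin gene Stag2 (20.4), a pair at 4930519F16Rik (19.4) and the bin of Tspyl2 and Gpr173 (19.3). At the other end, 91 of the 495 valued bins with 3 or more KLF4 peaks (18.4%) had a value below the median of all valued bins, 4.65. The lowest were at the retinoblastoma gene Rb1 (2.17), at Crb3 and Dennd1c (2.30), at Impdh1 (2.35), at Rgma (2.42) and 18523 bp from Igip (2.48).

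The bins with the most KLF4 peaks differed as widely. A bin 16543 bp from Nrf1, a regulator of mitochondrial genes, held 7 peaks at a value of 4.69. Bins near Zbtb44, at Rhof and at Pdgfa held 6 peaks each, at values of 14.7, 9.60 and 7.08. With 5 peaks came the bin 1226 bp upstream of Klf9, a relative of KLF4 (15.7), and bins at Cnn3 (13.8), Usp48 (12.2) and the Polycomb gene Phc1 (10.5), near Srrm1 (10.7) and near 1700001O22Rik (9.11). Assigned to the nearest gene end within 100 kb, the genes with the most KLF4 peaks in valued bins were Klf9 with 14, Plpp3 and Tbx3 with 13 each, and Ahnak, Esrrb and Gtf2ird1 with 12 each. Aff1, Grik3, Irf2bpl and Nrf1 followed with 11, as did Ppp2r5c, Rab11fip4, Rbpms and Sik1, which the limit of 10 genes left out and which were named after their values were seen.

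Neighbouring bins often carried exactly 1 value, so that acetylated stretches appear as runs. The 26812 valued bins formed 22509 runs. Among the 18552 runs of a single bin the median value was 4.11 and 36.4% held KLF4. For runs of 2 bins these were 6.21 and 62.5%, for the 198 runs of 3 bins 9.10 and 96.0%, and for the 62 runs of 4 to 8 bins 10.3 and 98.4%. Longer runs offer more room for a peak, yet peaks per 100 bins also went from 45.4 in single bins to 53.4, 89.6 and 95.6. Among KLF4-free valued bins, the 2027 that shared a run with a KLF4 bin had a median value of 7.23. By definition they carry that bin's value and lie in runs of 2 or more bins, so run length enters any comparison with other bins. KLF4-free runs of equal length were not set beside them. The 4817 that shared no such run but lay next to a bin with a KLF4 peak, valued or not, had 3.94. The 9791 that did neither had 4.02.

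Each bin also carries a whole number from 1 to 44, called the bin score here, whose meaning the sources used here do not state. The score was compared at equal H3K27ac value, since value and score had a Spearman rho of 0.32 over the valued bins. Within deciles of the value and gene-end class, 53.7% (52.8 to 54.7) of KLF4 bins were above the median score of KLF4-free bins, against 43.3% (42.6 to 44.1) of the KLF4-free bins, a share under 50% because scores tie. With 1, 2, 3 and 4 or more peaks the share was 50.3, 62.9, 72.4 and 80.6%. KLF4 bins had the larger share on 20 of 20 chromosomes, from 33.4% on chromosome 1 to 81.1% on chromosome 19, beside 24.9% to 71.3%. Scores differed strongly by chromosome, with a mean over valued bins of 3.84 on chromosome 1 and 9.69 on chromosome 19, and both shares follow that level.

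The score difference lay in the upper deciles of acetylation. In deciles 1 to 6 the intervals with and without KLF4 overlapped. In the lowest decile the share above the median score was 43.3% (39.0 to 47.7) with KLF4 and 43.1% (41.0 to 45.2) without, and in decile 5 it was 44.9% (41.7 to 48.1) and 43.2% (40.8 to 45.6). In decile 7 it was 46.5% (43.6 to 49.4) against 39.5% (37.1 to 42.0). In decile 8 it was 62.8% (60.1 to 65.5) against 44.6% (42.0 to 47.3), and in the highest 69.5% (67.2 to 71.8) against 46.1% (43.2 to 49.1). The mean score in the lowest decile was 3.69, 3.41, 4.47 and 4.56 for bins with 0, 1, 2 and 3 or more peaks. In decile 6 it was 4.87, 5.02, 5.89 and 7.28, so bins with 2 or more peaks already had higher mean scores there. In the highest decile it was 6.75, 9.22, 11.7 and 13.2. With deciles taken within each chromosome, a choice made after the data were seen, the highest decile gave 6.95, 9.27, 11.6 and 13.2. The median values of these classes in the highest decile were 10.1, 10.2, 10.2 and 10.5, so the classes were close in value.

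**Figure D3:**
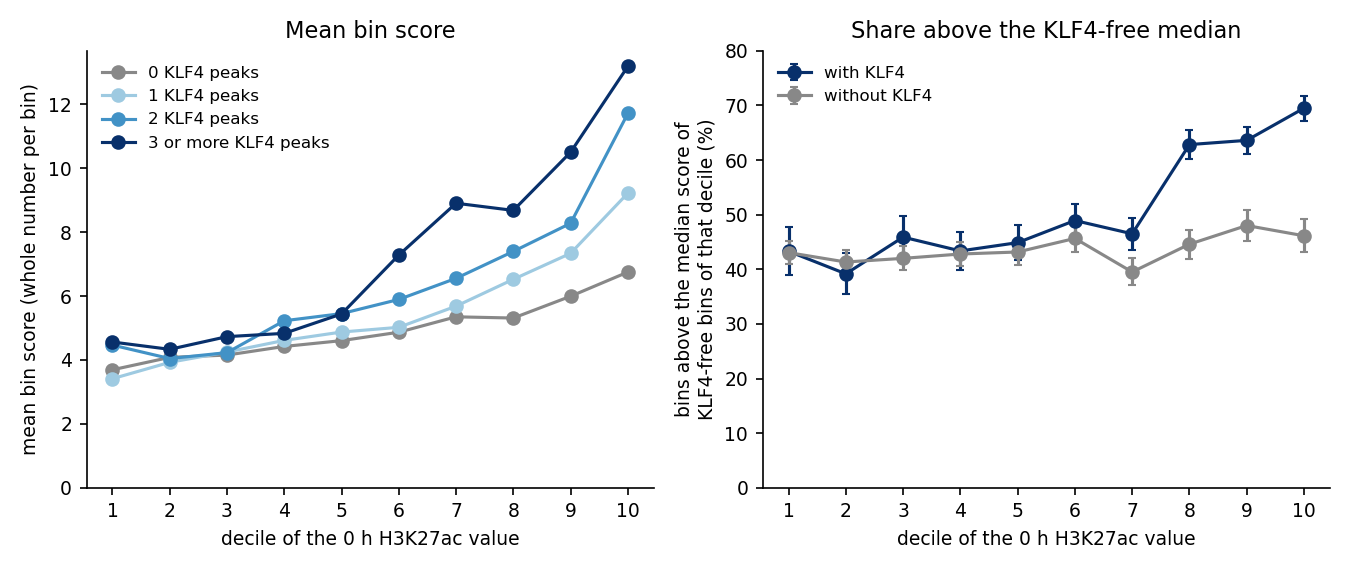
Left, mean bin score (vertical axis) by decile of the 0 h H3K27ac value for bins with 0, 1, 2 and 3 or more KLF4 peaks. Right, share of bins (percent, 95% exact binomial intervals) above the median score of KLF4-free bins of the decile and gene-end class, with KLF4 (dark) and without (grey); the curves part from decile 7, 46.5% against 39.5%, and reach 69.5% against 46.1%.

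Turned around, the value at equal score was also higher with KLF4: 69.1% (68.2 to 70.0) of KLF4 bins were above the median value of KLF4-free bins of the same score and gene-end class, on 20 of 20 chromosomes. The share of valued bins with KLF4 went from 30.9% at a score of 1 to 50.1% at 10 and 70.6% (67.5 to 73.5) at 15 or more. In bins without a value the mean score was low in both groups, 1.88 without KLF4 and 2.08 with it. The highest scores with KLF4 were at Hes1, a Notch target (44, value 7.27), near Eif2b5 (39, value 16.5, 3 peaks), near Tcf7l2 (37), near Rab12 (36) and at Rcor2 (36). The highest without KLF4 were at Hnrnpul2, Gng3 and Bscl2 (38), near Ak3 (37), at Uqcc3 and Lbhd1 (34), near Xpnpep1 (34) and 26589 bp from Klf5 (30, value 10.8). Of the top 100 bins by score 84 held KLF4, and of the top 1000 it was 708.

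Single pluripotency genes show how the sites sit in these stretches, taking each gene with 10 kb on each side. Esrrb had 11 KLF4 peaks, and 10 of its 17 listed bins carried a value, from 3.31 to 29.7. Its 5′ bins held no KLF4 and, where valued, 3.31 to 5.67. The KLF4 peaks began at the bin of chr12:86460001-86470000, where the value went to 10.9 in 4 bins, then to 29.7 and back to 9.94. Tfcp2l1 had 7 peaks over 9 valued bins, 6 of them at 11.2. Nanog had 3 peaks and 10.0 in all 4 bins, with scores of 12, 22, 11 and 10. Sox2 had 1 peak, in 1 of 2 bins at 14.2, the other free of KLF4, and 1 more valued bin at 6.16. Pou5f1 had 4 peaks and 8.73 in 3 bins, 3 of the peaks touching the bin of its first start.

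Among the 3 genes the labels name as targets, Klf2 had 3 peaks and 8.86 in all 4 bins. Klf4 had 3 peaks and values of 3.11, 7.32 and 7.32, with all 3 peaks touching the bin of its start. Klf5 had 3 peaks and values from 3.57 to 10.8, all 3 peaks touching 1 bin of 5.17. The T-box gene Tbx3 had 2 peaks and 9.23 in 3 bins, though 13 peaks in valued bins lie nearest to its ends. Zfp42 had 2 peaks, both in the bin of its start, and 8.33 in 3 bins. Each of these 10 genes had at least 1 KLF4 peak in a valued bin, against 35.5% of all protein-coding genes. The 10 were chosen with earlier results of these data known, so this count is no independent evidence.

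Gene lists for cell states were described by counts beside the same counts over 21887 protein-coding genes, of which 56% had a valued bin in the gene or its 10 kb flanks, 52.6% a KLF4 peak, 35.5% a KLF4 peak in a valued bin and 8.12% 3 or more such peaks. The lists were chosen with earlier results of these data known, so the counts are no independent evidence. Of 25 naive pluripotency genes, 24 had a valued bin, 24 a KLF4 peak, 23 a KLF4 peak in a valued bin and 10 at least 3. Their median highest value was 9.62, against 5.85 over all genes with one. Rex2 had 1 KLF4 peak and no listed bin, and Nr0b1, an orphan receptor gene, had a valued bin and no KLF4. Of 20 genes shared with other pluripotent states, 18 had a valued bin, 16 a KLF4 peak in one and 11 at least 3, led by Etv5 with 6 and Trim28 with 5. Of 15 primed or formative genes, 10 had a valued bin and 5 a KLF4 peak in one, close to the background. There the de novo methyltransferase gene Dnmt3a had 4 KLF4 peaks, none of them in a valued bin.

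Among signalling and factor families, 16 of 26 KLF and SP family genes had a KLF4 peak in a valued bin and 12 had at least 3. Over all protein-coding genes these shares were 35.5% and 8.12%. Klf9 led with 9 peaks, before Klf13 with 7 and Klf3 with 6. For LIF and STAT3 genes these were 11 and 7 of 16, with Bcl3 (7 peaks), the receptor gene Lifr (6) and the kinase gene Pim3 (5) in front. For the Wnt pathway they were 12 and 4 of 20, with 8 peaks at Tcf7l1. All 20 CTCF, cohesin and Mediator genes had a valued bin, beside 56% of all protein-coding genes. Of the 20, 12 had a KLF4 peak in such a bin and 1, Ldb1 with 4, at least 3. Of 16 Polycomb genes 13 had a KLF4 peak in a valued bin, with Cbx7 at 5. Glycolysis genes gave 13 and 8 of 17, with 7 peaks at the glucose transporter gene Slc2a3. Cell cycle genes gave 14 and 5 of 20, with 8 at the cyclin gene Ccnd3 and 6 at Rb1. All 22 epithelial junction and keratin genes had a KLF4 peak, beside 52.6% of all protein-coding genes. In a valued bin it was 13 of the 22, and the claudin gene Cldn4 had 6 peaks. Counts were not adjusted for gene length, whose median was 7245 bp for LIF and STAT3 genes. It was 70737 bp for CTCF, cohesin and Mediator genes and 17169 bp over all genes.

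In lists of other cell types, beside 35.5% of all protein-coding genes, a KLF4 peak in a valued bin was counted for 6 of 16 trophectoderm, 3 of 14 primitive endoderm, 2 of 11 mesendoderm, 4 of 12 neuroectoderm, 3 of 12 blood, 2 of 12 liver, 1 of 12 muscle and 1 of 9 olfaction genes. The trophectoderm and neuroectoderm counts were near that background, as for the primed or formative genes. Of the 14 primitive endoderm genes 11 had a KLF4 peak in all (78.6%, beside 52.6% of all protein-coding genes). The collagen genes Col4a1 and Col4a2, which share a promoter region, had 3 each with no listed bin. The neuronal tubulin gene Tubb3 had 4 peaks and no valued bin. Fibroblast markers, which feeder cells could bring, had a valued bin at 7 of 17 (41.2%, beside 56% of all protein-coding genes), with highest values from 2.98 at Vim to 12.1 at Loxl1. A KLF4 peak in a valued bin was counted for 5 of these 17 (29.4%). Col1a2, Postn, Dcn, Lum, Fbn1, Acta2, Twist1, Twist2 and Prrx1 had no listed bin and Thy1 no valued one. The part of feeder cells in the values at Fn1, Loxl1 and other fibroblast genes was not tested. In such bulk samples, fewer cells with the mark and less mark per cell cannot be told apart.

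**Figure D4:**
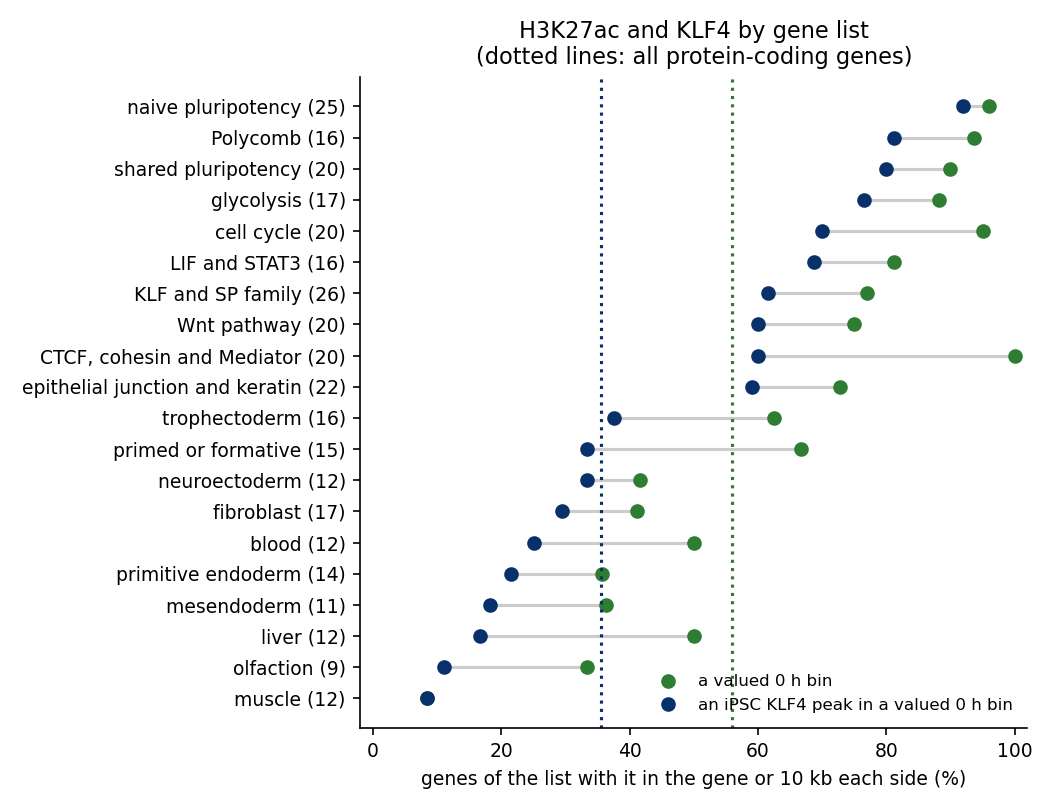
Percent of the genes of each list (number of genes in brackets) with a valued 0 h bin (green) and with an iPSC KLF4 peak in a valued bin (dark blue), in the gene or 10 kb on each side. Dotted lines give all protein-coding genes, 56% and 35.5%; naive pluripotency genes are highest for KLF4 in valued bins, 23 of 25, and muscle genes lowest, 1 of 12.

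KLF4 peaks gathered close to transcription starts in every state of the bin, on both sides. Peak centres within 2000 bp of a coding transcript's start made up 31.5% (30.7 to 32.3) of the peaks in valued bins, 22.2% (20.5 to 24.1) in bins without a value and 23.5% (22.5 to 24.6) in unlisted bins. The fullest step of 100 bp was the one just before the start in all 3, with 741, 109 and 273 peaks, and the step just after it held 568, 65 and 247. Of the centres within 2000 bp, 53.4%, 53.6% and 50.7% lay upstream. A KLF4 peak overlapped 21% of 21238 promoter windows, namely 33.4% (32.5 to 34.4) of those in valued bins, 16.6% (14.9 to 18.4) in bins without a value and 11.1% (10.5 to 11.7) in unlisted bins. Valued bins whose promoter window held the peak had a median value of 5.47 (5.37 to 5.57). Where the peak lay elsewhere in the bin it was 5.79 (5.68 to 5.92), and with no peak in the bin 4.89 (4.83 to 4.96). A bin counts here once for each of its windows.

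**Figure D5:**
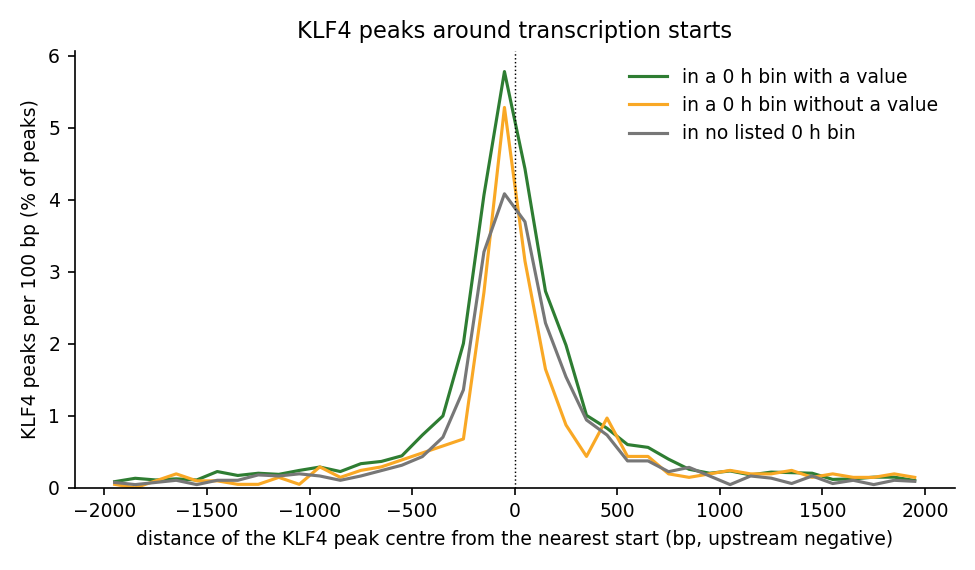
KLF4 peak centres around the nearest start of a coding transcript, in steps of 100 bp (horizontal axis, upstream negative), as a percent of the peaks in valued 0 h bins (green), bins without a value (yellow) and unlisted bins (grey). All 3 curves have their top in the step just before the start, with 741, 109 and 273 peaks.

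The words shown above in capitals were more common in promoter windows that a KLF4 peak overlapped, in every state of the bin, wherever in the window the word lay. GGGTGTGG or GGGCGTGG was in 10.2% of all promoter windows. In valued bins it was in 22.6% (21.2 to 24.2) of windows with a peak and 7.82% (7.15 to 8.53) without. In bins without a value these were 29.5% (24.5 to 35.0) and 6.79%, and in unlisted bins 24.4% (21.9 to 26.9) and 5.86%. Over all states GGGCGTGG was in 18.9% of windows with a peak and 3.81% without, and GGGTGTGG in 6.11% and 2.97%. Of the words searched for comparison, also on both strands, the octamer ATGCAAAT was in 1.10% and 1.81%, CCAAT in 33.2% and 39.5%, TATAAA in 4.89% and 14.7%, and the E-box CACGTG in 11.5% and 6.85%. Windows with a peak were richer in G and C, with medians in valued bins of 65.0% and 58.3%. In 5 equal classes of GC content, from low to high, the KLF4 words were in 17.8, 21.0, 25.2, 24.8 and 22.4% of windows with a peak, against 2.45 to 10.9% without. A match is a description of letters, not a bound site.

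MicroRNA genes, looked at after the data were seen, included 1 of the most acetylated loci. Of 1005 hairpins in the RefSeq table, 345 lay in valued bins, and the bin of 161 of these (46.7%) held KLF4, against 12.3% of 130 in bins without a value and 10.4% of 530 in unlisted steps. Over all bins these shares were 38.0%, 8.32% and 2.79%, so the states differed for bins in general and not for microRNA genes alone. The miR-290 cluster, the main microRNA group of naive mouse ESCs, lay in the last 2 of 4 neighbouring bins (chr7:3190001-3230000) that all had the value 18.1, rank 7 among 26134 autosomal valued bins. These bins had 1, 3, 4 and 0 KLF4 peaks and scores of 9, 22, 13 and 11. Together they held 8 KLF4 peaks, at chr7:3194193-3216351, all before the first hairpin, Mir290a, which starts at 3218626. The cluster of miR-302 and miR-367, which is typical of primed cells, lay in 1 bin (chr3:127540001-127550000) with a value of 3.22, a score of 2 and no KLF4 peak. Some mature RNAs of both clusters share a seed (bases 2 to 8, in capitals), which is why they are shown, beside miR-290a-3p. Other members have other seeds, among them miR-293-3p with GUGCCGC and miR-302c-3p with AGUGCUU.
miR-294-3p: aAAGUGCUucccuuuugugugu
miR-295-3p: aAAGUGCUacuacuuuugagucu
miR-302b-3p: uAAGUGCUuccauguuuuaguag
miR-302d-3p: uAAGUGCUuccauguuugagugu
miR-290a-3p: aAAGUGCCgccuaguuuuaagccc
The seed AAGUGCU is common to the first 4, and miR-290a-3p has AAGUGCC. After the miR-290 cluster, the hairpins in KLF4 bins of highest value were Mirlet7i (11.8), Mir8102 (11.0), Mir6540 (10.7), Mir7655 (10.5) and Mir130a (10.5).

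The 8 bins with the most KLF4 peaks lay in 1 array of ribosomal RNA genes. The 8 unlisted bins of chr8:123540001-123620000 held 79 KLF4 peaks and 45 genes of 5S ribosomal RNA. Copies of this array are near-identical, so reads cannot be placed among them with certainty and these peaks are uncertain. The next unlisted bins were chr3:96450001-96460000 with 7 peaks and 4 transfer RNA genes, chr6:47740001-47750000 with 6 and no such gene, and chr1:171070001-171080000 with 5 peaks and 7 transfer RNA genes. Other unlisted bins with 5 peaks, among them chr6:47680001-47690000 and chr6:47750001-47760000, held no ribosomal, transfer or small nuclear RNA gene. Within 500 bp a KLF4 peak was found at 49 of 63 ribosomal RNA genes (77.8%), but outside that array at 4 of 18 (22.2%, interval 6.41 to 47.6). The counts were 68 of 408 transfer RNA genes (16.7%), 81 of 1228 microRNA genes (6.60%), 29 of 1004 small nuclear RNA genes (2.89%) and 19 of 1340 small nucleolar RNA genes (1.42%). The share over all genes within 500 bp was not computed, so whether any of these shares is high or low cannot be said. Of the 8 bins with the most KLF4 peaks in the genome none was listed at 0 h.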

How the data were processed

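The labels list 12 ChIP-seq samples, of which 4 enter here: H3K27ac in uninduced ESCs at 0 h and KLF4 in iPSCs, 2 replicates each. The tools named per the submitters' processing notes are MACS2, Bowtie2, bedtools and SAMtools, with mm10 as the build, and versions, roles and the way replicates were combined are not given in the sources used here. The deposited 0 h list has 10 columns without a header. Its last column was read as H3K27ac signal from the authors, of unknown normalization, and a bin without signal holds a number below 1e-300. Column 4 is a deposited score, a whole number of unstated meaning. The deposited KLF4 list gives positions of peaks only. The 24 h list and the iPSC H3K27ac list were not used here.

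A peak was counted in every bin it overlapped by 1 bp. Gene ends, promoter windows and microRNAs came from RefSeq tables of GRCm38.p6, and a window was found for 234 of 314 listed genes and 8 of 10 genes named in the rule below. Shares have exact (Clopper-Pearson) intervals and medians exact order-statistic intervals, both at 95%. Bins were set against KLF4-free bins by gene-end class (2 kb), and scores also by decile of the value. The statistics were tested on simulated data. Python 3.11.15, pandas 2.3.3, numpy 2.4.6, scipy 1.17.1 and matplotlib 3.10.9 were used.

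The members, gene lists and words were chosen with earlier results of these data known. Named were 10 pluripotency genes, the 10 genes and the 10 valued bins with most KLF4 peaks, the 5 bins of highest value and of highest score with and without KLF4, the 5 of lowest value among bins with 3 or more peaks, the bins outside the valued set with most peaks, and up to 3 leading members per list. An item that this rule names is not reported here. The alternatives tried varied the overlap rule, the KLF4 list, the gene-end distance, the bins, the chromosomes and the classes of value.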

Additional observations from a re-analysis of the deposited data

How the results depend on the processing

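No paired analysis was possible because each group is 1 deposited list without columns per replicate. In the 48 alternative values computed, KLF4 bins stayed on the same side of KLF4-free bins wherever both were compared; 28 values moved less than the counting interval. The share of KLF4 peaks in valued bins was 58.1% with peaks within 1 kb joined, 66.1% for the wider peaks, 49.7% on bins unmarked in columns 5 to 9 and 56.7% with a value above the lowest 10% required. The share of KLF4 bins above the KLF4-free median value was 72.1%, 67.2% and 68.3% for the last 3 of these, and 71.5% with medians within each chromosome, chosen after seeing the data. The share above the KLF4-free median score was 49.3% with 1 bin per run of equal values (KLF4-free 42.3%), 50.7% on unmarked bins (43.4%) and 55.0% without chromosome 8 (44.3%). The share of valued bins with KLF4 was 37.0% when a peak counted only in the bin of its centre and 24.1% for the wider peaks. It was 37.0% with only the first bin of each run kept, 34.1% on unmarked bins and 40.0% with that higher limit. The share of listed KLF4 bins with a value was 89.5% for the wider peaks, 81.1% on unmarked bins and 80.1% with that higher limit. It was 81.6% with only the first bin of each run kept beside all listed KLF4 bins without a value. Some directions follow from the definitions. Joining peaks within 1 kb cannot change which bins hold KLF4. The shares counted over bins could therefore not move there, and they are among the 28. Fewer peaks, or a peak counted only at its centre, can only lower the share of valued bins with KLF4. A higher limit can only lower the shares of peaks in valued bins and of listed KLF4 bins with a value. Keeping only first bins of runs can likewise only lower the share of listed KLF4 bins with a value. The cause of the remaining moves was not tested. Gene-end distances of 1 and 5 kb do not enter the shares without that class, and 1 bin per run was not run for the share of peaks. Read depth is unknown, so what it limits cannot be given.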
